A study of Homo sapiens with 9 samples.

Results

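The basement membrane and matrix genes described here were 10 genes picked by symbol in the deposited count table: COL4A1, COL4A2, COL6A1, COL6A2, LAMB1, LAMC1, LAMA5, AGRN, HSPG2 and SPARC. They are 10 of the 26485 genes in that table, and all 10 were among the 21994 genes that passed the filter on low counts and were tested. Poly(A)-selected RNA was sequenced from HEK293 cells, an established line derived from human embryonic kidney, in 9 libraries. Of these, 3 came from cells in which UBE3D, an E3 ubiquitin ligase gene, was knocked out with CRISPR/Cas9 (KO), 3 from UBE3D addback cells and 3 from UBE3D wild-type cells (WT). The labels give the CRISPR/Cas9 treatment for every sample, WT included, mark every sample as pooled, and do not say whether KO and addback were single clones. Nor do they say whether the libraries of a group were separate cultures, so the p-values measure the spread between libraries, which may be technical. In bulk RNA such as this, fewer cells of a kind and less RNA per cell cannot be told apart.

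A basement membrane is the thin sheet of matrix to which epithelial and many other cells attach. Laminin trimers of an α, a β and a γ chain polymerise at the cell surface, a network of collagen IV forms beside them, and the heparan sulfate proteoglycans perlecan and agrin bind both to laminin and to cell surface receptors. Collagen VI makes beaded filaments at the border with the interstitial matrix, and SPARC is a secreted glycoprotein that binds collagens, collagen IV among them.

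COL4A1 and COL4A2, the chains of the common collagen IV trimer, lie head to head on chromosome 13, which is why their start region is shown first. COL4A1 is on the minus strand at 110148958-110307157 and COL4A2 on the plus strand at 110307284-110513026 (hg38), with their starts 127 bases apart. The promoter windows of RefSeq on GRCh38.p14 run from 250 bases before each start to 50 after it, and those of both genes share 226 bases. The COL4A2 window, chr13:110307034-110307333 on the plus strand, therefore covers the start of COL4A1 as well. Capitals in all sequences printed here mark matches to any of 4 short motifs searched on both strands: the GC box GGGCGG, the CCAAT box CCAAT, the TATA box TATAAA and the AP-1 site TGANTCA.
COL4A2: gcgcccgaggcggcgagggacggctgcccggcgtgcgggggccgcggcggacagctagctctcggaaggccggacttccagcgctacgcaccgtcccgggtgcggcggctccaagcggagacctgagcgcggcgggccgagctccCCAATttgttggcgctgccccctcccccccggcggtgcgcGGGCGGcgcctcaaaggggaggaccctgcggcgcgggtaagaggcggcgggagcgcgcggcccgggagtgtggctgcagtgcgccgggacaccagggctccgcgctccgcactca
Between both start sites stand 1 CCAAT box, 105 bases before the COL4A2 start, and 1 GC box, 65 bases before it. Read from the opposite strand, the same sites lie 26 and 67 bases before the start of COL4A1.

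The promoter windows of COL6A2, LAMB1, LAMC1 and SPARC are printed because these genes took the different courses described below. The COL6A2 window is chr21:46097862-46098161 (plus strand), that of LAMB1 chr7:108003112-108003411 (minus), that of LAMC1 chr1:183023170-183023469 (plus) and that of SPARC chr5:151686866-151687165 (minus). The RefSeq starts differ from those in the count table by 7 bases for COL6A2, 198 for LAMB1, 40 for LAMC1 and 139 for SPARC.
COL6A2: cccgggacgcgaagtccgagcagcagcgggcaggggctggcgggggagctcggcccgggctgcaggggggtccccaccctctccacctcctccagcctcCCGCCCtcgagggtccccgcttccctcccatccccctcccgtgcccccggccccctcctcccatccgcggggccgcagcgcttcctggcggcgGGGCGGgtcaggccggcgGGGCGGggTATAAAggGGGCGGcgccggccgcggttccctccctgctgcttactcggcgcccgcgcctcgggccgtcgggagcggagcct
LAMB1: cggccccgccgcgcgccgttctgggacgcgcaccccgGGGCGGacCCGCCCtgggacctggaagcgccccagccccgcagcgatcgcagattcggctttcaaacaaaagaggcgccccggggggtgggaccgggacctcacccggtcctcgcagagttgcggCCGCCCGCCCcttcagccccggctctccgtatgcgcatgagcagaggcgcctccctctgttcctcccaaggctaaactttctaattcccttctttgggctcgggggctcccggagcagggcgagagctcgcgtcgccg
LAMC1: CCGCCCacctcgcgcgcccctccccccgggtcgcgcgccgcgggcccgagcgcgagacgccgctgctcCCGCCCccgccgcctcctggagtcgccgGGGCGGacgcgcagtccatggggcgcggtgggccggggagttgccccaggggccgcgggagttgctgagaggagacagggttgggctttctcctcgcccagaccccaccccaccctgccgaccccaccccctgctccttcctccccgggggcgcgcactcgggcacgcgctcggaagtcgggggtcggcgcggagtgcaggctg
SPARC: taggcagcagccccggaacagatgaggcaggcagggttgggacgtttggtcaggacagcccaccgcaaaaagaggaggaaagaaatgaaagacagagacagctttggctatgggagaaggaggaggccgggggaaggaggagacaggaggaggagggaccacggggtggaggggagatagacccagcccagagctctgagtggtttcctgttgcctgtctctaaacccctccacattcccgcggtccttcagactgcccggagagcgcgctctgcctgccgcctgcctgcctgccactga
COL6A2 held 4 GC boxes and a TATA box 32 bases before its start. LAMB1 also held 4 GC boxes, of which 2 overlap in the run CCGCCCGCCC, and LAMC1 held 3. SPARC held no match to the 4 motifs in this window. The windows of LAMA5 and HSPG2 held 5 and 10 GC boxes, and none of the 8 windows held the AP-1 site; COL6A1 and AGRN were not matched. Of all 35116 promoter windows in the table, 45.0% held the GC box, 34.6% the CCAAT box, 11.5% the TATA box and 7.71% the AP-1 site. GC content was 61.3% for SPARC and between 71% and 83.3% for the other 7 windows, against a median of 58.7% over all windows. These matches describe the letters only.

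Total counts ran from 23088295 to 37508780 per library. One property of the libraries bears on every comparison with KO. Of 573 tissue-restricted genes, such as odorant receptors and keratin-associated proteins, 95.6% to 96.3% had a count in each WT and addback library but 14.5% to 17.3% in each KO library. Their median count for each kilobase of coding bases served as an estimate of background. Spread over all coding sequence, it would fill 2.92%, 8.03% and 14.1% of the counts in WT libraries 1 to 3, 2.72%, 11.4% and 11.2% in addback libraries 1 to 3, and 0% in KO libraries. Levels are therefore given as CPM, counts divided by the size of their library, scaled on 7620 low-background genes (scaled CPM), those whose estimated background was at most 10% of their mean level. Fold changes are log2 ± standard error from 1 edgeR quasi-likelihood fit over all 9 libraries, and calls are at a Benjamini-Hochberg adjusted p under 0.05 over all tested genes. UBE3D itself stood at 13.2, 15.8 and 14.5 scaled CPM in KO, 19.5, 21.4 and 26.6 in WT, and 3349, 3289 and 2741 in addback.

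Background filled little of most of the 10 genes. Averaged over all libraries, it amounted to between 0.737% of the level for SPARC and 8.23% for COL6A2 in the 8 low-background genes, to 11.0% for LAMA5 and to 37.9% for HSPG2. HSPG2, which has the longest coding sequence of the 10 (13173 bases), had the highest share: 23.5%, 31.4% and 95.1% in WT 1 to 3, and 18.8%, 58.2% and 62.0% in addback 1 to 3. The plot of background shares shows HSPG2 and, less far, LAMA5 standing above the other genes.

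**Figure D1:**
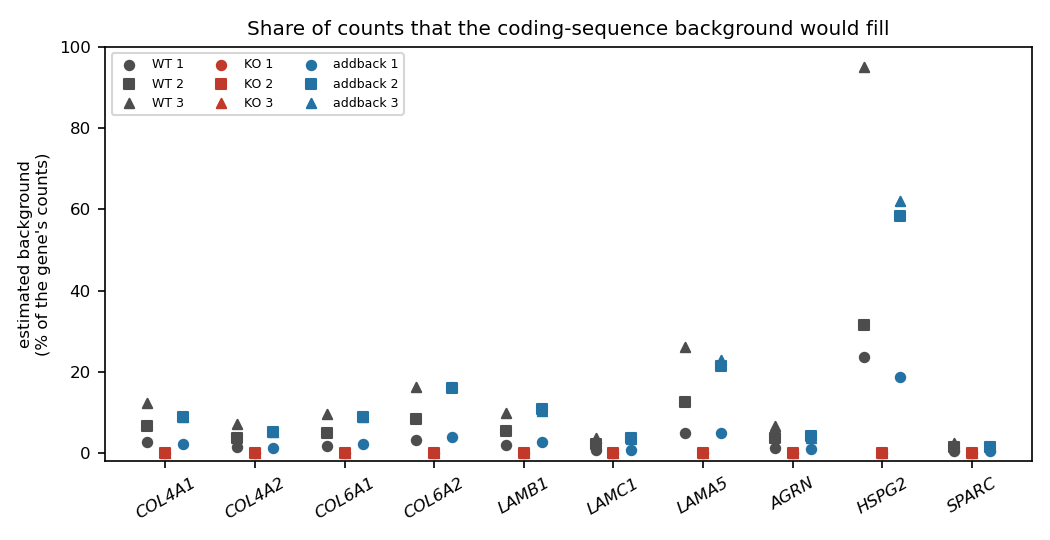
The vertical axis is the estimated coding-sequence background as a percent of the counts of each gene, and each symbol is 1 of the 9 libraries (KO symbols overlie each other at 0). HSPG2 reaches 95.1% in WT 3 and LAMA5 26.1%, while SPARC, AGRN and LAMC1 stay near the bottom.

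Per kilobase of exon, the WT levels spanned more than a factor of 10. LAMC1 was the highest with 71.1 ± 0.952 scaled CPM per kilobase (SD, n = 3), followed by AGRN with 56.4 ± 2.27 and COL4A2 with 53.1 ± 1.78. SPARC (44.9 ± 1.48), LAMB1 (42.4 ± 0.885) and COL6A1 (35.8 ± 2.26) came next. COL4A1 with 23.8 ± 1.63 and COL6A2 with 21.6 ± 0.957 differed by less than the sum of their SDs, as did AGRN and COL4A2. LAMA5 (17.5 ± 1.44) and HSPG2 (4.90 ± 1.99) were lowest.

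In KO against WT, 9 of the 10 genes were called, 3 higher (COL4A1, COL4A2, SPARC) and 6 lower (COL6A1, COL6A2, LAMB1, LAMA5, AGRN, HSPG2). Of all tested genes 62% were called, 9.55% higher and 52.4% lower, so a lower call was common in this comparison. Among the low-background genes 49.4% were called, 23.3% higher and 26.2% lower, against 7 of the 8 low-background genes of the set, 3 higher and 4 lower. The median log2 fold was -0.52 over the 10 genes and -0.47 over all tested genes, and -0.26 over the 8 against -0.02 over all low-background genes. With the scaling set on all tested genes, which moved the median of all genes to -0.12, AGRN and LAMA5 were no longer called and 7 calls remained, 3 higher and 4 lower. Over all 21994 tested genes that scaling called 13542, 5315 higher and 8227 lower. With replicate 1 as the only WT and addback library, the pair with the least background, the median was -0.47 over the 10 genes. Over all tested genes it was -0.24 in that run, and COL4A1 was at 0.66.

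The collagen IV pair rose in KO. COL4A1 stood at 164, 188 and 179 scaled CPM in WT, 235, 313 and 237 in KO, and 194, 197 and 196 in addback. COL4A2 stood at 331, 344 and 322 in WT, 450, 528 and 458 in KO, and 386, 351 and 345 in addback. For both genes every KO library was above every WT and addback library, and KO 2 was the highest. The log2 fold in KO against WT was 0.56 ± 0.10 for COL4A1 (edgeR adjusted p = 0.00228) and 0.52 ± 0.07 for COL4A2 (edgeR adjusted p = 0.000894). Without KO 2 the COL4A1 fold was 0.41 (adjusted p = 0.00321). Scaling on all tested genes gave 0.91 for COL4A1 and 0.86 for COL4A2.

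Both collagen IV genes fell from KO to addback, by 0.42 ± 0.10 for COL4A1 (edgeR adjusted p = 0.00873) and 0.41 ± 0.07 for COL4A2 (edgeR adjusted p = 0.00233) on the log2 scale. The COL4A1 fall rested in part on KO 2, without which it was -0.27 (adjusted p = 0.0125). With replicate 1 as the only WT and addback library the values were -0.42 for COL4A1 (adjusted p = 0.342) and -0.30 for COL4A2 (adjusted p = 0.0583). In addback against WT neither gene was called, with log2 folds of 0.14 ± 0.10 and 0.12 ± 0.07 (edgeR adjusted p = 0.652 and 0.477), although the addback values lay above all WT values for both genes. For COL4A2 the margin was narrow, with addback 3 at 344.6 and WT 2 at 344.4 scaled CPM. With the background subtracted its groups overlapped, addback 3 at 326.8 lying below WT 2 at 331.7.

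The ratio of COL4A2 to COL4A1 per kilobase of exon was 2.24 ± 0.14 in WT, 2.20 ± 0.162 in KO and 2.19 ± 0.151 in addback (SD, n = 3). The groups overlapped, and KO against WT gave an exact two-sided permutation p of 0.8. The exons of COL4A2 share 81 bases with those of COL4A2-AS1 on the opposite strand, which had at most 11 counts in any library; whether the counting used strand is not given in the sources used here.

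**Figure D2:**
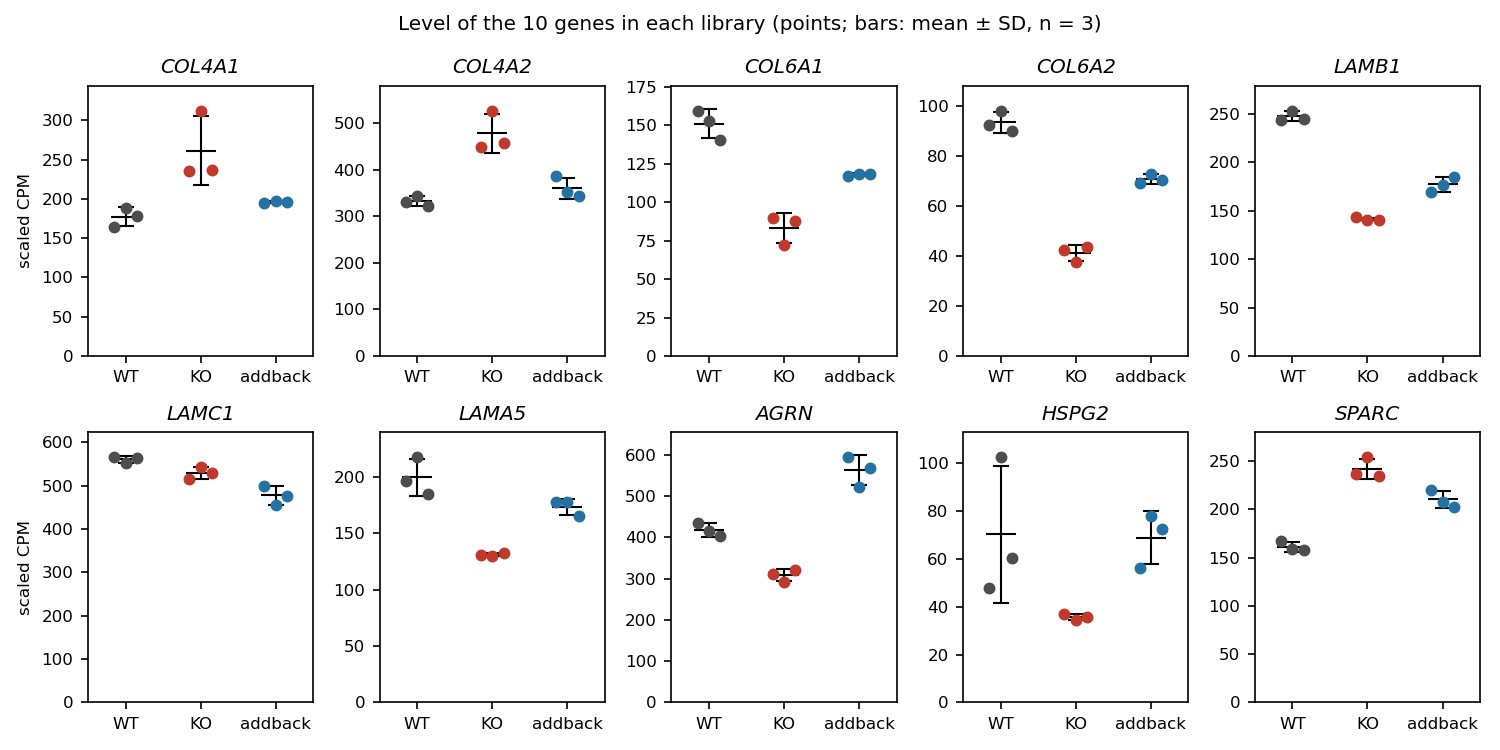
Points are the scaled CPM of each library for the 10 genes in WT, KO and addback, and bars are the mean ± SD of 3 libraries. COL4A1, COL4A2 and SPARC are highest in KO, COL6A1, COL6A2, LAMB1, LAMA5 and HSPG2 lowest in KO, and AGRN is highest in addback.

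The collagen VI pair fell in KO. COL6A1 (chromosome 21, 45981749-46005049, plus strand), the α1 chain, stood at 160, 153 and 141 scaled CPM in WT, 90.0, 71.9 and 87.8 in KO, and 117, 119 and 118 in addback. COL6A2 (chromosome 21, 46098119-46132849, plus strand), the α2 chain, stood at 92.3, 98.2 and 90.2 in WT, 42.5, 37.6 and 43.8 in KO, and 69.1, 72.9 and 70.6 in addback. The order WT, addback, KO held without overlap for both genes. KO 2, the highest library for collagen IV, was the lowest for both collagen VI genes.

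The COL6A2 change in KO against WT was the largest of the 10 as fitted, -1.18 ± 0.06 (edgeR adjusted p = 2.05e-05), and COL6A1 changed by -0.86 ± 0.08 (edgeR adjusted p = 0.000244). From KO to addback COL6A2 rose by 0.78 ± 0.06 (edgeR adjusted p = 0.000201) and COL6A1 by 0.50 ± 0.08 (edgeR adjusted p = 0.00227). The COL6A1 rise was 0.20 (adjusted p = 0.212) with scaling on all tested genes, and 0.49 (adjusted p = 0.103) with replicate 1 as the only WT and addback library. Both stayed below WT in addback, with COL6A2 at -0.40 ± 0.06 (edgeR adjusted p = 0.00334) and COL6A1 at -0.36 ± 0.08 (edgeR adjusted p = 0.0238). The last call was lost when addback 1, 2 or 3 or WT 1 or 2 was left out, with adjusted p from 0.0662 to 0.0924.

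COL6A1 and COL6A2 lie head to tail, with 93070 bases from the end of COL6A1 to the start of COL6A2. The ratio of COL6A2 to COL6A1 per kilobase was 0.604 ± 0.0356 in WT, 0.485 ± 0.0249 in KO and 0.584 ± 0.0123 in addback. KO did not overlap WT (exact permutation p = 0.1, the smallest that 3 against 3 libraries allow, and 0.15 after Benjamini-Hochberg adjustment over the 15 ratio comparisons). Between the collagen families the shift was larger: COL4A2 to COL6A2 per kilobase was 2.49, 2.43 and 2.48 in WT, 7.34, 9.72 and 7.25 in KO, and 3.88, 3.34 and 3.39 in addback. No group overlapped another (all 3 exact permutation tests gave p = 0.1, 0.15 adjusted). The pair sets a gene called higher in KO against the one with the largest fitted fall. A large shift in KO therefore follows from the folds above, and these tests give no separate support. A ratio within a library does not depend on how libraries are scaled. Subtracting the background, estimated at 0% in KO, could not change the KO ratio of 8.10 ± 1.40. It moved WT from 2.46 ± 0.0305 to 2.61 ± 0.119.

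**Figure D3:**
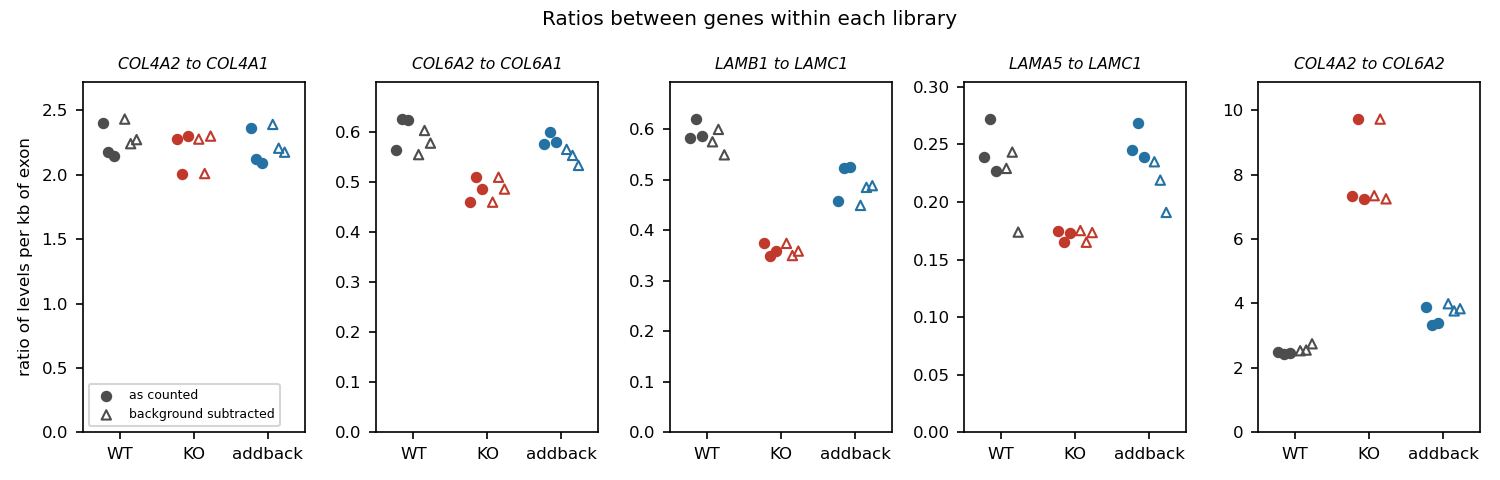
Each panel gives the ratio of 2 genes, both per kilobase of exon, in each library (filled circles as counted, open triangles with the background subtracted). COL4A2 to COL4A1 overlaps between groups near 2.2, COL4A2 to COL6A2 is above 7 in every KO library and below 4.1 elsewhere, and LAMB1 to LAMC1 is lowest in KO.

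Of the 3 laminin chains, LAMB1 and LAMA5 were called lower in KO than in WT and higher in addback than in KO, and LAMC1 was not. LAMB1 (chromosome 7, 107923801-108003359, minus strand), the β1 chain, stood at 244, 254 and 245 scaled CPM in WT, 143, 141 and 141 in KO, and 169, 177 and 185 in addback. LAMC1 (chromosome 1, 183023460-183145592, plus strand), the γ1 chain found in most laminin trimers, stood at 566, 552 and 564 in WT, 517, 543 and 529 in KO, and 499, 456 and 476 in addback. LAMA5 (chromosome 20, 62309060-62367312, minus strand), the α5 chain, stood at 196, 218 and 185 in WT, 131, 130 and 133 in KO, and 177, 178 and 165 in addback. LAMB1 and LAMA5 were lowest in KO without overlap, while LAMC1 was lowest in addback.

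LAMB1 changed by -0.81 ± 0.04 in KO against WT (edgeR adjusted p = 1.07e-05) and rose by 0.33 ± 0.04 from KO to addback (edgeR adjusted p = 0.0014). It stayed below WT in addback by -0.48 ± 0.04 (edgeR adjusted p = 8.83e-05), so the addback level lay nearer to KO than to WT. With scaling on all tested genes its rise from KO to addback was 0.02 (adjusted p = 0.872). Its fall below WT in addback was the only one of the 6 calls among these genes in that comparison that held under that scaling.

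LAMC1 was the 1 gene of the 10 not called in KO against WT, at -0.08 ± 0.04 (edgeR adjusted p = 0.0836), and this value changed sign to 0.25 (adjusted p = 0.115) with scaling on all tested genes. With the background subtracted it was -0.13 (adjusted p = 0.011). LAMC1 fell by 0.15 ± 0.04 from KO to addback (edgeR adjusted p = 0.00955) and was below WT in addback at -0.23 ± 0.04 (edgeR adjusted p = 0.00523). With 2 times the background subtracted, its difference between addback and KO was -0.04 (adjusted p = 0.546), and with replicate 1 as the only WT and addback library it was -0.08 (adjusted p = 0.166).

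LAMA5 fell by 0.60 ± 0.06 in KO against WT (edgeR adjusted p = 0.000265) and rose by 0.40 ± 0.06 from KO to addback (edgeR adjusted p = 0.002). Its background reached 26.1% in WT 3 and 22.9% in addback 3. Subtracting the background left -0.46 in KO against WT and 0.23 (adjusted p = 0.156) in addback against KO. Subtracting 2 times the background left -0.28 (adjusted p = 0.412) and 0.00 (adjusted p = 0.998), and scaling on all tested genes gave -0.27 (adjusted p = 0.0732) and 0.10 (adjusted p = 0.483). In addback against WT the value was -0.20 ± 0.06 (edgeR adjusted p = 0.0625), which passed the threshold with the replicate number as a block (adjusted p = 0.024), with DESeq2 on low-background size factors (adjusted p = 0.00389) and without WT 3 (-0.25, adjusted p = 0.0167).

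Within each library, LAMB1 to LAMC1 per kilobase was 0.582, 0.620 and 0.587 in WT, 0.374, 0.350 and 0.359 in KO, and 0.458, 0.524 and 0.525 in addback. The 3 groups did not overlap (exact permutation p = 0.1 for each pair, 0.15 adjusted). LAMA5 to LAMC1 was 0.246 ± 0.0234 in WT, 0.171 ± 0.00541 in KO and 0.251 ± 0.0155 in addback, with KO below both other groups (exact permutation p = 0.1, 0.15 adjusted). With the background subtracted, WT 3 came to 0.174 and the KO and WT ranges of LAMA5 to LAMC1 overlapped (exact permutation p = 0.2).

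AGRN (chromosome 1, 1020123-1056119, plus strand) encodes agrin, the proteoglycan best known for clustering acetylcholine receptors at the neuromuscular junction. It stood at 435, 414 and 402 scaled CPM in WT, 312, 292 and 320 in KO, and 595, 523 and 569 in addback. It was the 1 gene of the 10 whose addback level exceeded WT after a fall in KO. The fall in KO against WT was -0.44 ± 0.06 (edgeR adjusted p = 0.000851), which came to -0.11 (adjusted p = 0.507) with scaling on all tested genes. The rise from KO to addback was 0.87 ± 0.06 (edgeR adjusted p = 5.79e-05), and addback exceeded WT by 0.43 ± 0.06 (edgeR adjusted p = 0.00161; 0.46 with scaling on all tested genes, adjusted p = 0.15).

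HSPG2 (chromosome 1, 21822232-21937297, minus strand) encodes perlecan, a large heparan sulfate proteoglycan of basement membranes. It stood at 47.9, 102 and 60.4 scaled CPM in WT, 36.8, 34.2 and 35.7 in KO, and 56.2, 77.8 and 72.6 in addback. KO was below both other groups, and the WT libraries spread more widely than those of any other of the 10 genes. As counted, HSPG2 changed by -0.98 ± 0.25 in KO against WT (edgeR adjusted p = 0.00847) and by 0.95 ± 0.25 in addback against KO (edgeR adjusted p = 0.0111). Without WT 2 the first value was -0.60 (adjusted p = 0.0103).

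These HSPG2 calls did not hold once the background was subtracted: -0.12 (adjusted p = 0.911) in KO against WT and 0.07 (adjusted p = 0.955) in addback against KO. Subtracted levels in WT were 36.6, 70.3 and 2.94 scaled CPM, a range that includes the KO values. In WT 1 and addback 1 alone against the 3 KO libraries the fold as counted in KO against WT was -0.43. Background made up 23.5% of HSPG2 in WT 1. With it subtracted, WT 1 stood at 36.6 scaled CPM, inside the KO range of 34.2 to 36.8. The exons of HSPG2 also share 1671 bases with LDLRAD2 on the opposite strand, which had 1, 6 and 1 counts in KO, 21, 191 and 56 in WT, and 24, 115 and 91 in addback. In addback against WT HSPG2 differed by -0.03 ± 0.24 (edgeR adjusted p = 1) and the groups overlapped.

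SPARC (chromosome 5, 151661096-151687054, minus strand) stood at 167, 159 and 157 scaled CPM in WT, 237, 254 and 235 in KO, and 220, 208 and 203 in addback. The 3 groups did not overlap, and background made up less of SPARC than of any other of the 10 genes. SPARC rose by 0.59 ± 0.05 in KO against WT (edgeR adjusted p = 0.000117; 0.92 with scaling on all tested genes). It fell by 0.20 ± 0.05 from KO to addback (edgeR adjusted p = 0.00559), which came to -0.05 (adjusted p = 0.455) with 2 times the background subtracted. In addback it remained above WT by 0.38 ± 0.05 (edgeR adjusted p = 0.00103; 0.42 with scaling on all tested genes, adjusted p = 0.178).

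**Figure D4:**
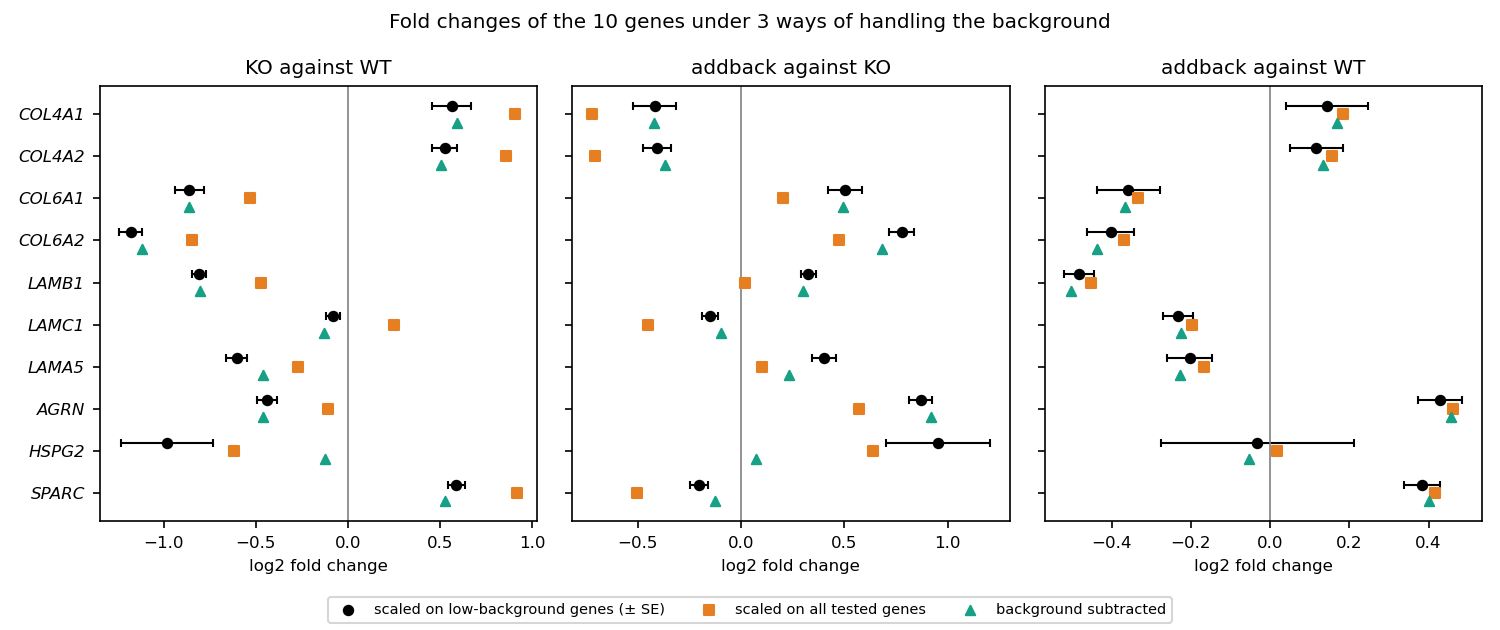
Log2 fold changes of the 10 genes in the 3 comparisons, scaled on low-background genes (circles, ± SE), scaled on all tested genes (squares) and with the background subtracted (triangles). Scaling on all genes moves every gene upward in KO against WT, and LAMC1 changes sign there; HSPG2 moves to -0.12 with the background subtracted.

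In addback against KO all 10 genes were called, 6 higher and 4 lower, where 56.8% of all tested genes were called, 49% higher and 7.75% lower. Of the 8 low-background genes of the set 4 were higher and 4 lower, against 38.2% of all low-background genes called, 18.3% higher and 19.9% lower. Their medians were 0.36 over the 10 genes against 0.45 over all tested genes, and 0.09 over the 8 against 0.00 over all low-background genes. With scaling on all tested genes 7 were called, 3 higher and 4 lower, LAMB1, LAMA5 and COL6A1 dropping out. Over all 21994 tested genes that scaling called 13155, 8364 higher and 4791 lower. With replicate 1 as the only WT and addback library the median was 0.35 over the 10 genes and 0.25 over all tested genes. KO is shared by this comparison and the one with WT, so opposite signs in them are not independent; the values stand side by side above.

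In addback against WT, which does not use KO, 6 of the 10 genes were called: AGRN and SPARC higher, and COL6A1, COL6A2, LAMB1 and LAMC1 lower. Of all tested genes 9.19% were called, 4.31% higher and 4.87% lower, and of the low-background genes 22.3%, 9.93% higher and 12.4% lower. All 6 called genes were low-background genes. The replicate numbers paired the WT and addback libraries, and with the number as a block 7 genes were called, LAMA5 being the addition. With scaling on all tested genes 1 gene was called, LAMB1 (-0.45), and the other 5 kept their direction with adjusted p above 0.05. Over all 21994 tested genes the block called 2715 and that scaling 566, against 2021 without either change.

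The authors' deposited table for KO against WT, whose folds are shrunken, called 8 of the 10 genes, 3 higher and 5 lower. Over all genes it called 14834 of 23806, 5032 higher and 9802 lower. In the authors' deposited table COL4A1 was at 0.77, COL4A2 at 0.73, SPARC at 0.80, COL6A2 at -0.91 and HSPG2 at -0.54. LAMC1 (0.15, adjusted p = 0.0982) and AGRN (-0.17, adjusted p = 0.105) were not called in the authors' deposited table. For addback against KO the authors' deposited table called 7 of the 10, 3 higher and 4 lower, leaving out COL6A1 (0.21, adjusted p = 0.0648), LAMB1 (0.06, adjusted p = 0.399) and LAMA5 (0.13, adjusted p = 0.202). Over all genes it called 14767 of 23806 in that comparison, 9482 higher and 5285 lower. None of the 10 genes appeared among the 2541 and 2396 downstream-of-gene regions in the authors' deposited tables of both comparisons.

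Beyond the 10 genes, 116 other genes of the matrix, its receptors and its enzymes were listed, all of them tested and 57 of them low-background. Of the 57, 11 rose and 22 fell in KO against WT, which is 19.3% higher and 38.6% lower beside 23.3% and 26.2% of all low-background genes. Their median log2 fold was -0.09, against -0.02 over all low-background genes. Scaling on all tested genes turned the counts into 27 higher and 3 lower, with a median of 0.25. The same 57 gave 15 higher and 9 lower in addback against KO, or 26.3% and 15.8% beside 18.3% and 19.9% of all low-background genes (2 and 26 genes with scaling on all tested genes). They gave 5 higher and 7 lower in addback against WT, or 8.77% and 12.3% beside 9.93% and 12.4% (3 and 1 genes with scaling on all tested genes). Over all 116, 12 rose and 63 fell in KO against WT, or 10.3% and 54.3%, close to the 9.55% and 52.4% of all tested genes.

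Among the low-background genes of the basement membrane lists, 2 of 2 relatives of collagen IV, 2 of 3 laminin chains and 1 of 3 genes of the nidogen, netrin and Fraser group fell in KO against WT, as scaled on low-background genes, beside 26.2% of all low-background genes. COL4A5, the X-linked collagen IV chain altered in Alport syndrome, was at -0.33 ± 0.09 (edgeR adjusted p = 0.0116) and COL18A1, the source of endostatin, at -0.28 ± 0.09 (edgeR adjusted p = 0.0188). With scaling on all tested genes both calls were lost, at 0.014 for COL4A5 and 0.053 for COL18A1. The COL18A1 call was also lost with the background subtracted (-0.16, adjusted p = 0.38) and without KO 1 or KO 3 (adjusted p = 0.0562 and 0.0606), and its fold was -0.17 without WT 2. The laminin chains LAMA4 and LAMB2 were at -0.32 ± 0.08 and -0.34 ± 0.08 (edgeR adjusted p = 0.00992 and 0.00531), and neither was called with scaling on all tested genes (0.019 for LAMA4). PXDN, the peroxidase that forms sulfilimine crosslinks in collagen IV, fell by 0.65 ± 0.07 (edgeR adjusted p = 0.000364), from 129 ± 1.95 scaled CPM in WT to 82.1 ± 7.65 in KO, while the COL4A1 and COL4A2 pair rose.

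In the SPARC family both low-background genes beside SPARC rose, SMOC1 by 0.44 ± 0.07 (edgeR adjusted p = 0.00168) and FSTL1 by 0.15 ± 0.04 (edgeR adjusted p = 0.0189). The FSTL1 call was lost with the background subtracted (0.085, adjusted p = 0.13) and when KO 1, KO 2 or WT 2 was left out (adjusted p from 0.0509 to 0.0687). Of 8 low-background matrix receptors 4 rose and 3 fell. Over all low-background genes, the shares beside both lists were 23.3% higher and 26.2% lower. SDC1, the syndecan of epithelial cells, rose by 0.46 ± 0.05 (edgeR adjusted p = 0.000596) and SDC4 by 0.23 ± 0.05 (edgeR adjusted p = 0.00362). BCAM, a receptor for laminin α5, fell by 0.45 ± 0.09 (edgeR adjusted p = 0.00364), a call lost with scaling on all tested genes.

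Of 14 low-background genes of collagen modification and export, 2 rose and 4 fell, beside 23.3% higher and 26.2% lower over all low-background genes. P4HA1, a prolyl 4-hydroxylase subunit, was at -0.38 ± 0.10, PLOD3, a lysyl hydroxylase, at -0.30 ± 0.04 and P3H3 at -0.28 ± 0.08 (edgeR adjusted p = 0.00918, 0.0012 and 0.0143). With scaling on all tested genes all 3 calls were lost, and PLOD3 and P3H3 stood at 0.035 and 0.057. The P3H3 call was also lost with the background subtracted (-0.18, adjusted p = 0.221) and without KO 1 or KO 3 (adjusted p = 0.0513 and 0.054). Of 14 genes of heparan sulfate synthesis, the chains carried by perlecan and agrin, 2 rose and 5 fell, beside the same shares. SULF2, which removes sulfate from these chains, rose by 0.48 ± 0.07 (edgeR adjusted p = 0.00129), and the synthesis enzymes XYLT2 and NDST2 were at -0.43 ± 0.05 and -0.39 ± 0.07 (edgeR adjusted p = 0.000401 and 0.00246), calls lost with scaling on all tested genes.

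Of 5 low-background matrix proteases 3 fell, beside 26.2% of all low-background genes. ADAMTS1, a secreted protease that cleaves versican, fell by 1.02 ± 0.06 (edgeR adjusted p = 2.95e-05), from 356 ± 12.7 scaled CPM in WT to 175 ± 14.1 in KO, and stood at 295 ± 9.25 in addback. MMP15, a membrane-type metalloprotease, fell by 0.74 ± 0.09 (edgeR adjusted p = 0.000695; 0.0967 with replicate 1 as the only WT and addback library), and CTSL, a lysosomal protease, by 0.46 ± 0.05 (edgeR adjusted p = 0.000596; lost with scaling on all tested genes). Of 6 interstitial matrix genes 1 rose and 2 fell, beside 23.3% higher and 26.2% lower over all low-background genes. FN1, fibronectin, rose by 0.41 ± 0.05 (edgeR adjusted p = 0.000941). FBN2 and VCAN were at -0.52 ± 0.08 and -0.58 ± 0.12 (edgeR adjusted p = 0.00131 and 0.00316), calls lost with scaling on all tested genes.

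**Figure D5:**
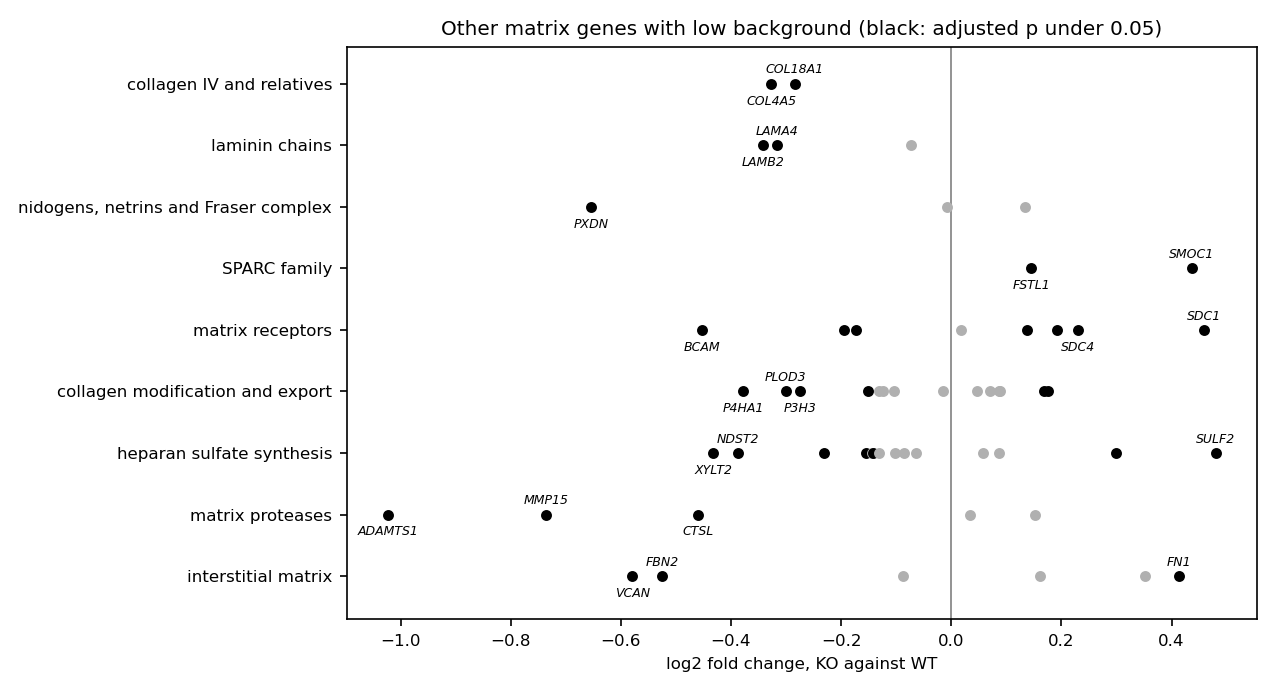
Each point is 1 low-background matrix gene outside the 10, placed by its log2 fold change in KO against WT as scaled on low-background genes (black where the adjusted p was under 0.05). ADAMTS1 lies farthest to the left at -1.02, and SULF2, SDC1, SMOC1 and FN1 farthest to the right among the called genes.

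The summed levels of markers of other cell types differed between the groups, and much of them was estimated background. The summed level of 7 fibroblast markers ran from 51.7 to 59.2 scaled CPM in KO, 70.0 to 171 in WT and 81.1 to 163 in addback, and that of 6 endothelial markers from 2.70 to 3.58, 25.9 to 98.8 and 25.4 to 100.5. For 5 blood markers the ranges were 25.9 to 32.0, 34.3 to 92.5 and 41.4 to 68.3. COL1A1, the highest fibroblast marker in KO, ran from 42.1 to 50.4 there, 38.3 to 55.6 in WT and 49.7 to 65.0 in addback. HBB, the highest blood marker in KO, ran from 25.2 to 31.3 there, 24.7 to 32.3 in WT and 25.2 to 38.3 in addback. The other 4 blood markers were each under 1 scaled CPM in every KO library. Estimated background made up 59.9% to 93.9% of the endothelial sum, 21.6% to 55.6% of the fibroblast sum and 14.2% to 47.9% of the blood sum in the WT and addback libraries. With it subtracted, the fibroblast sum was 51.3 to 84.1 in WT, overlapping KO, and 63.6 to 88.1 in addback, above KO. The blood sum was 28.0 to 60.5 in WT and 27.4 to 43.3 in addback, both overlapping KO. The endothelial sum was 6.03 to 34.7 in WT and 8.31 to 27.9 in addback, both above KO. EMCN, an endothelial marker, was at 0 in all KO libraries, and every fibroblast, endothelial and blood marker had counts in each WT and addback library. The 7 HEK293 and embryonic kidney markers were detected in every library, and their summed level was 453 to 563 in KO, 1087 to 1136 in WT and 636 to 681 in addback. IRS4 carried this order, with 158 to 244 in KO, 807 to 863 in WT and 305 to 347 in addback; it was singled out after its values were seen. The other 6 markers summed to 295 to 319 in KO, 273 to 291 in WT and 331 to 335 in addback, with WT lowest. The part of these differences in the changes of the 10 genes was not tested.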

How the data were processed

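The study measured poly(A) RNA of HEK293 cells in 9 libraries of 3 groups (KO, addback, WT), grouped by the genotype label. Per the submitters' processing notes, cutadapt 1.8.1, STAR 2.5.2b and DESeq2 were used on hg38; which step each served is not stated there, and the counting program and annotation were not given in the sources used here. In the deposited count table there is a raw count per gene and library, with gene length in bases (other), per the file headers. The authors' deposited result tables give a base mean (signal), log2 fold changes with standard errors, a test statistic (score) and p-values; they were copied, not tested again. The column names KO, KO.U and WT were matched to the groups, KO.U being taken as addback because the authors' deposited tables name that group as KO with UBE3D; 0 sample columns went unused.

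The model was run in edgeR 4.0.16 (R 4.3.3, with filterByExpr, TMM factors from the low-background genes, robust quasi-likelihood fit over 9 libraries, genotype as the only term), with Benjamini-Hochberg adjustment over 21994 genes. Low-background genes were those with an estimated background no higher than 10% of their mean CPM and exons that are at least 10% coding; coding lengths came from GENCODE v29 for 18598 genes. Alternatives were scaling on all genes, DESeq2 1.42.0, no filter, background subtracted (1 and 2 times), fits on low-background genes or on the 2 groups alone, a replicate block and leaving out each library. A run with replicate 1 as the only WT and addback library was chosen after seeing the data; with 1 library in an arm, it assumes that library varies like the KO libraries. Ratios were compared by exact two-sided permutation tests. The edgeR fit of KO against WT was tested on simulated counts, which held no background and the same spread in all groups. The background estimate, its subtraction and the ratio tests were not simulated.

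Same-numbered libraries deviated together for addback and WT (correlations of 0.894, 0.6 and 0.741 over all tested genes, 0.58, 0.303 and 0.637 over low-background genes) but not with KO (-0.0505 to 0.0181 over all tested genes; over low-background genes 0.00616 to 0.0737 for KO and WT, and 0.00998, 0.0867 and 0.188 for addback and KO, where pairing required every pair above 0.1); the number comes from the sample titles. Replicates were not copies of each other: chi-square over its degrees of freedom was 1.99 to 44.5.

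The 10 genes, the lists and the rule for other genes were chosen with earlier results of these data known. The rule names, per list, up to 3 low-background genes with the largest absolute fold among those called in KO against WT. Promoter sequences are from RefSeq on GRCh38.p14, of which 8 of the 10 genes were matched.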

Additional observations from a re-analysis of the deposited data

How the results depend on the processing

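Of the alternatives set out at the start, 847 values kept their direction and side of the threshold, 64 lost a call, 5 gained one and 14 changed sign. The 847 include fits without a library of the group outside the comparison, which could hardly change the fold. For COL4A1 in KO against WT it was 0.56 without addback 1, 2 or 3 and 0.56 with all 9 libraries. The number of genes called in KO against WT was 3797 in the fit on low-background genes alone, 7442 with the background subtracted and 5214 with 2 times the background subtracted; in addback against KO it was 2800, 5196 and 3485. In addback against WT it was 566 with scaling on all tested genes, 3357 with DESeq2 on low-background factors, 1154 with only the 2 groups fitted, and 1222 to 1943 with 1 library left out. Scaling on all tested genes raised the share of called genes that were higher from 15.4% to 39.2% in KO against WT and from 47% to 66.3% in addback against WT, and lowered it from 86.3% to 63.6% in addback against KO; DESeq2 with its own size factors gave 35.1%, 44.1% and 63.1%. With 2 times the background subtracted, 6 of the 10 genes were called in addback against KO, beside 3485 of 18060 tested genes, and the median of the 10 was -0.019. Scaling on all tested genes left 1 call among the 10 in addback against WT, beside 566 of 21994 tested genes. The median of the 10 in addback against WT ran from -0.20 to 0.0032 with 1 library left out, turning sign without WT 2, and was 0.039 with replicate 1 as the only WT and addback library. LAMC1 in KO against WT was 0.25 with scaling on all tested genes and 0.17 with DESeq2. HSPG2 was 0.61 in KO against WT and -1.54 in addback against KO with 2 times the background subtracted; in addback against WT it was 0.018 with scaling on all tested genes, -0.23 to 0.35 with 1 library left out (0.09 without addback 1, 0.35 without WT 2) and 0.23 with replicate 1 as the only WT and addback library. Scaling on all tested genes gave COL4A5 0.014, COL18A1 0.053, LAMA4 0.019, PLOD3 0.035 and P3H3 0.057 in KO against WT, and COL18A1 was 0.0037 with 2 times the background subtracted. With the replicate number as a block, 14723 genes were called for KO against WT and 13818 for addback against KO. In addback against WT the block gave 2715 genes and HSPG2 was 0.0052; among the 10 genes only the LAMA5 call in addback against WT changed. Of the 22 other matrix genes named, 13 lost their KO against WT call or changed sign with scaling on all tested genes. The number was 10 with DESeq2 on size factors from all tested genes, and 10 with 2 times the background subtracted. The cause of these changes was not tested. The background is an estimate from genes assumed silent. The lowest raw count of the 10 genes in any library was 938, for HSPG2 in KO 2. In WT 3 HSPG2 had 1342 counts, 95.1% of them estimated background, and 2.94 scaled CPM with it subtracted.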
